A study of Mus musculus with 12 samples.

Results

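Zinc chelation was examined in mouse erythroid cells that had already received an siRNA against ZIP10. The comparison set 3 libraries of the group siZIP10 plus DTPA against 3 libraries of the group siZIP10, which are 6 of the 12 libraries of the study. It covers the genes whose level, averaged across the 11 libraries in the fit, reached 1 TPM (a level per length of transcript, scaled so that each library adds up to 1000000), which left 11379 of the 55487 genes listed. All groups used G1E-ER4, a mouse erythroid progenitor line that lacks the transcription factor GATA1 and carries a form of GATA1 that estradiol switches on. Every culture was transfected 2 times with siRNA, 24 h apart, and began to differentiate when 100 nM β-estradiol was given together with the second transfection. The siZIP10 cultures received an siRNA against ZIP10, the siControl cultures a control siRNA. In the DTPA groups, 25 µM of this metal chelator was present from the start of differentiation, and RNA was taken after 24 h in all groups. The replicates are labelled as biological replicates. The line is 1 cell line grown with erythropoietin and Kit ligand. Zinc and ZIP10 protein were not measured in the data used here, and how far DTPA acted through metals other than zinc was not tested.

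Cells keep zinc within a narrow range. ZIP proteins carry zinc into the cytosol, ZnT proteins carry it out or into vesicles, and metallothioneins bind it. The zinc sensor MTF1 binds metal response elements in DNA when zinc is plentiful, turns on Mt1, Mt2 and Slc30a1 (which encodes the exporter ZnT1), and is known to hold down Slc39a10, the gene of ZIP10. Maturing red cell precursors make globin, heme and a spectrin-based membrane skeleton while they leave the cell cycle and switch off genes of the progenitor state, such as Kit and Gata2.

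The promoters of the 3 MTF1 target genes are shown because their transcripts went in opposite directions in this comparison. Each run holds 250 bases before and 50 bases after a RefSeq transcription start (build GRCm38.p6), written 5′ to 3′ on the strand of the gene. Capitals mark the core of the metal response element, TGCACNC or TGCGCNC on either strand. The windows are chr8:94178839-94179138 (plus strand) for Mt1, chr8:94172368-94172667 (plus strand) for Mt2 and chr1:191906531-191906830 (plus strand) for Slc30a1.
Mt1: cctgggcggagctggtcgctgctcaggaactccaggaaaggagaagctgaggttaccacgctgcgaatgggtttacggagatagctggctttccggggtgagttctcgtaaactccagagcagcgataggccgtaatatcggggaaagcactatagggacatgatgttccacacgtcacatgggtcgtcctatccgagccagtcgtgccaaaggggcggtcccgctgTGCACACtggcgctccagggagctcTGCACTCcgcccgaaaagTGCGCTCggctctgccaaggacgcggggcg
Mt2: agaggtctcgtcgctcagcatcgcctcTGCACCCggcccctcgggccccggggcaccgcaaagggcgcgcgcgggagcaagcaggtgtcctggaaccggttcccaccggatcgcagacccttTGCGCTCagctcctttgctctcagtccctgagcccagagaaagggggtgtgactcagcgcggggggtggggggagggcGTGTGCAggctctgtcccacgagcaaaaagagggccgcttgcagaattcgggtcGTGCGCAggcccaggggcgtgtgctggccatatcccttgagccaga
Slc30a1: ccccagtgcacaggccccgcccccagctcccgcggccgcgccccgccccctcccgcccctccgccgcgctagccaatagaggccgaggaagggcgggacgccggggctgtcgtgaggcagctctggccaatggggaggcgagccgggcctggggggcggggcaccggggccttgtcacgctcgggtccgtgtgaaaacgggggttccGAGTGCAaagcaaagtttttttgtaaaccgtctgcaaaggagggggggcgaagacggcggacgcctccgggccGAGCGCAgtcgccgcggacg
The core occurred 3 times in the Mt1 window, 4 times in the Mt2 window and 2 times in the Slc30a1 window. It occurred in 25.7% of all 32851 RefSeq windows of this length and in 40.8% of the 7725 tested genes that have one, so a match is a description of the sequence and marks no bound site.

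Each of the 6 libraries held 20.14 to 24.68 M reads, where M stands for 1000000, as recovered from the TPM values. Replicates of a group correlated at 0.988 to 0.99 (Pearson's r over genes, log2 scale), and libraries of different groups at 0.957 to 0.959. The composition of the RNA differed between the groups. Ribosomal RNA of mitochondria took 0.3717 to 0.4211% of all TPM in siZIP10 and 1.435 to 1.446% in siZIP10 plus DTPA. Nuclear protein-coding genes took 82.9 to 84.05% and 77.29 to 79.6%. All 9 erythroid markers checked were expressed, with at least 21.7 TPM in each of the 6 libraries. One file was a duplicate: siZIP10 replicate 1 and siControl plus DTPA replicate 3 held the same value for each of the 55487 genes, and the heading in both files names the siZIP10 library. The siControl plus DTPA copy was left out, which gave that group n = 2. Without siZIP10 replicate 1, the library it duplicates, 2411 genes were higher and 3982 lower with DTPA, and 202 of the 206 genes examined by name kept their direction and their side of the threshold.

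DTPA changed most of the genes tested in siZIP10 cells. Of the 11379 genes, 6871 (60.4%) passed an adjusted p of 0.05 (limma on log2(TPM + 1), Benjamini-Hochberg over all genes), 2623 (23.1%) of them higher with DTPA and 4248 (37.3%) lower. Most changes were small. At least 2-fold changes on this scale were seen in 339 genes (2.98%) that rose and in 382 (3.36%) that fell, and the median over all genes tested was −0.06 (log2). The groups did not overlap in 2918 genes (25.6%) that were higher with DTPA and in 4482 (39.4%) that were lower. Lack of overlap is therefore common here. The largest changes and interactions were picked only from genes without overlap. Each change given is a log2 difference of means, and its standard error is written SE. The log2(TPM + 1) scale understates the changes of genes with low TPM. The share of higher genes among those called depended on scaling. It was 38.2% as deposited, 47.5% after quantile normalization, 46.8% after median-of-ratios scaling and 50.2% after nuclear protein-coding genes were scaled to a common total. The voom fit on recovered reads gave 47%. Abundant genes fell more often. In the third of nuclear protein-coding genes with the highest levels (2992 genes), 23.6% rose and 56.2% fell, so list counts near these shares are not particular to a list. RNA levels in bulk culture do not separate fewer cells of a kind from less RNA in each cell; the 2 cannot be told apart here.

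**Figure D1:**
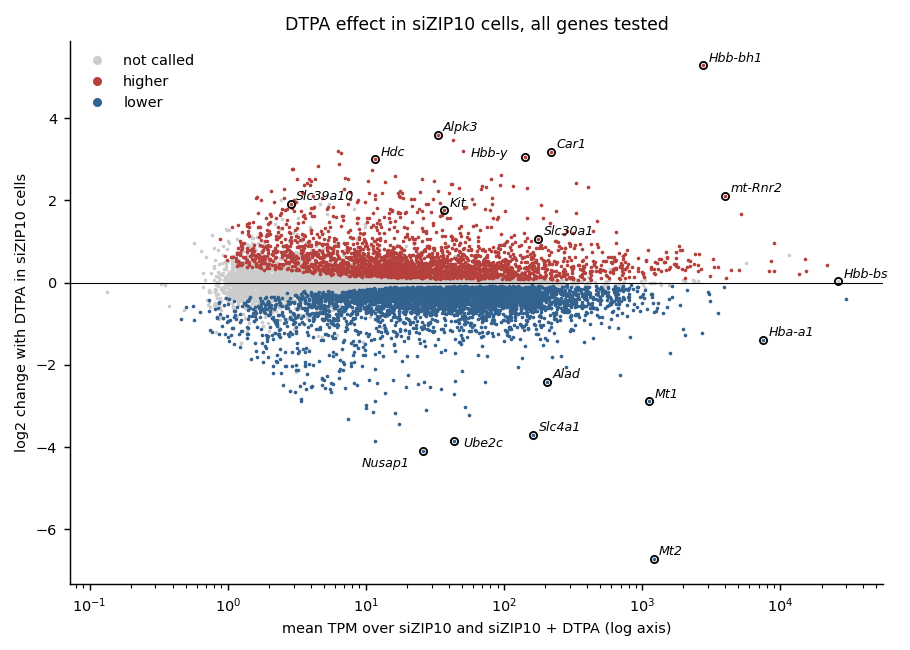
Log2 change with DTPA in siZIP10 cells (vertical axis) against mean TPM over the 6 libraries (log axis) for all genes tested, with genes called higher in red, called lower in blue and not called in grey. Hbb-bh1 stands at 5.28 and Mt2 at −6.72, the ends of the range, and most other genes lie close to 0.

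The transcript of the siRNA target rose when DTPA was added. Slc39a10 (ENSMUSG00000025986.6, chromosome 1, 46807544-46892852, minus strand) stood at 2.78, 2.31 and 2.78 TPM in siControl and at 0.539, 0.507 and 0.837 TPM in siZIP10, so the 2 groups did not overlap. In siZIP10 plus DTPA it stood at 5.36, 4.93 and 5.02 TPM, above every siControl library. The mean with DTPA was 8.14 times that of siZIP10 and 194.5% of the siControl mean (log2 change 1.91, SE 0.10, adjusted p = 6.32e-08). These levels rest on few reads, 21 to 36 per library in siZIP10 and 212 to 250 in siZIP10 plus DTPA, and with a pseudocount of 0.1 the log2 change was 2.87. In siControl plus DTPA the transcript reached 22 and 20.3 TPM. The label siZIP10 in the DTPA group names the siRNA given, and not a transcript level below that of untreated control cells.

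Both metallothionein transcripts fell and the zinc exporter transcript rose. Mt1 (ENSMUSG00000031765.8, chromosome 8, 94179082-94180327, plus strand) stood at 1845.2, 2106.3 and 2039.0 TPM in siZIP10 and at 280.2, 268.1 and 259.0 TPM with DTPA. DTPA left 13.5% of the siZIP10 level (log2 change −2.89, SE 0.05, adjusted p = 2.79e-11). Mt2 (ENSMUSG00000031762.7, chromosome 8, 94172664-94173568, plus strand), its neighbour, stood at 2365.4, 2496.8 and 2376.7 TPM without DTPA and at 21.4, 26.2 and 18.6 TPM with it. All 3 libraries with DTPA lay far below the 3 without, at 0.914% of the siZIP10 mean (log2 change −6.72, SE 0.11, adjusted p = 1.16e-11). Slc30a1 (ENSMUSG00000037434.7, chromosome 1, 191906767-191913247, plus strand) stood at 112.1, 111.6 and 120.1 TPM in siZIP10 and at 247.1, 231.6 and 247.0 TPM with DTPA. This MTF1 target moved against the metallothioneins, to 2.11 times its level (log2 change 1.07, SE 0.04, adjusted p = 4.87e-09). The 3 genes share the metal response element core printed above. The 2 windows of Slc39a10 held 0 matches to this core.

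Other zinc transporters moved little. Of the 14 ZIP importer genes, 9 passed the filter on low values, and 3 of these rose and 2 fell with a median log2 change of 0.12. Slc39a8, the most abundant ZIP transcript measured, carries zinc, iron and manganese and stood at 383.1, 368.4 and 390.0 TPM in siZIP10 against 277.5, 272.1 and 278.8 TPM with DTPA (log2 change −0.46, adjusted p = 5.49e-08). The groups did not overlap. Slc39a11 fell by 0.55, while Slc39a1, a plasma membrane importer, rose by 0.28 and Slc39a9 by 0.18. Slc39a6, Slc39a3, Slc39a13 and Slc39a7 did not pass the test, with log2 differences of −0.07, −0.06, 0.12 and 0.29. Of 10 ZnT genes, 6 passed the filter. Besides Slc30a1, Slc30a7 rose by 0.20 (adjusted p = 0.0372), a call that was lost in 6 of 22 alternatives, among them without siZIP10 replicate 1 or 2 (adjusted p = 0.073 and 0.124) and without any 1 of the siZIP10 plus DTPA libraries (adjusted p = 0.0615 to 0.0868). Slc30a9 and Slc30a5, which serve the mitochondria and the early secretory pathway, fell by 0.51 and 0.35.

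Embryonic globin transcripts rose while adult alpha-globin transcripts fell. Hbb-bh1 (ENSMUSG00000052217.6, chromosome 7, 103841637-103843164, minus strand), a beta-like globin of embryonic red cells, stood at 131.6, 145.4 and 139.4 TPM in siZIP10. With DTPA it stood at 5551.1, 5462.3 and 5247.5 TPM, the largest rise of all genes tested at 39.1 times (log2 change 5.28, SE 0.04, adjusted p = 2.92e-14). Hbb-y, the other embryonic beta-like globin, went from 32.1, 30.7 and 27.3 TPM to 251.4, 258.7 and 255.0 TPM, 8.49 times its level (log2 change 3.05, adjusted p = 1.09e-08). Neither gene had overlapping groups. Hbb-bh2 (0, 0.264 and 0 TPM against 3.63, 3.66 and 2.84 TPM) and the embryonic alpha-like Hba-x (2.33, 2.2 and 3.02 TPM against 8.5, 5.9 and 5.54 TPM) also rose, both from very low levels. Hbb-bh2 passed the filter on low values only through the group where it was high.

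The adult alpha-globin gene Hba-a1 stood at 11080.5, 10582.4 and 11038.5 TPM in siZIP10 and at 4212.3, 4194.3 and 4042.5 TPM with DTPA. The 2 groups were far apart (log2 change −1.39, SE 0.05, adjusted p = 4.74e-09). Hba-a2, its near-identical copy, went from 2639.5, 2349.7 and 2373.7 TPM to 869.0, 631.5 and 765.7 TPM (log2 change −1.71), and Hbq1b, a theta-like globin, fell by 1.07. The division of reads between the alpha copies is uncertain, as it is between the adult beta copies. Hbb-bs, the most abundant beta transcript, stood at 25527.9, 27855.6 and 25392.0 TPM without DTPA and at 25750.2, 28221.8 and 26390.9 TPM with it, and the groups overlapped (log2 difference 0.03, SE 0.06, adjusted p = 0.701). Hbb-bt scattered within both groups, from 3436.1 to 6538.2 TPM and from 3249.2 to 11535.6 TPM (log2 difference 0.47, SE 0.48, adjusted p = 0.432). In all, 9 of the 11 genes of this list passed the filter, 4 rose and 3 fell.

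**Figure D2:**
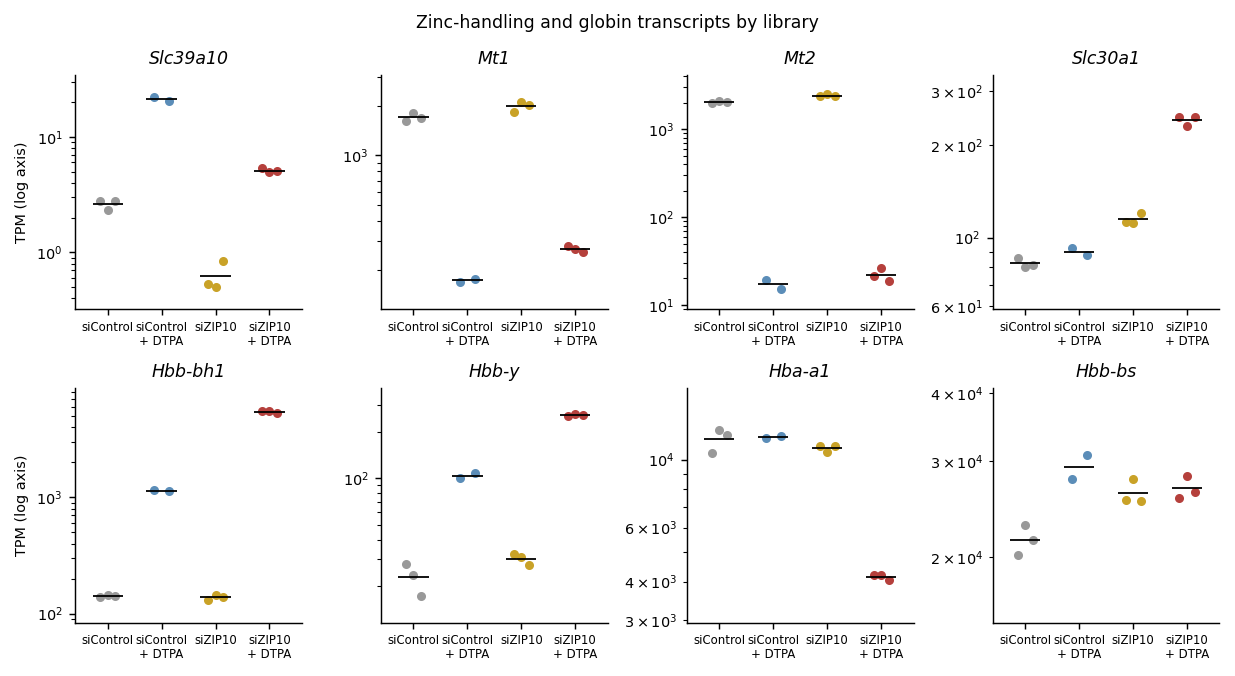
TPM of 8 zinc-handling and globin genes in each library (points, log axis) and the group mean (line) in the 4 groups, with 3 libraries per group and 2 in siControl plus DTPA. Mt1 and Mt2 were low in both DTPA groups, Slc30a1 stood apart in siZIP10 plus DTPA at 231.6 to 247.1 TPM, Hbb-bh1 was highest there, and Hbb-bs overlapped between siZIP10 and siZIP10 plus DTPA.

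Transcripts of heme synthesis split. All 9 genes were measured, 5 fell, 2 rose, and the median log2 change was −0.46, shares close to those of abundant genes at large. Alad, which encodes the zinc-dependent enzyme that joins its early precursors, went from 363.9, 338.5 and 339.0 TPM to 66.4, 61.4 and 64.8 TPM. The groups did not overlap, and 18.5% of the level was left (log2 change −2.42, SE 0.03, adjusted p = 5.8e-12). Cpox fell by 1.19, Urod by 0.57 and Fech, which puts iron into heme, by 0.46. Uros and Ppox rose by 0.38 and 0.13. Alas2, the erythroid first enzyme and the most abundant of the list, stood at 2368.9, 2235.0 and 2256.7 TPM and at 2366.9, 2343.3 and 2420.7 TPM. Its log2 difference was 0.06 (adjusted p = 0.102), and quantile normalization turned it to −0.15 (adjusted p = 0.00146). It passed at 0.08 without siZIP10 replicate 1 (adjusted p = 0.0201) and at 0.12 to 0.14 under the other scalings. The remaining gene, Alas1, differed by 0.13 and did not pass.

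Iron handling genes also moved in both directions. Of 20 genes of mitochondrial iron and heme transport, 19 passed the filter and 15 fell, with a median of −0.31, where 37.3% of all genes tested fell. Slc25a37, which encodes the mitochondrial iron importer mitoferrin 1, went from 169.9, 160.0 and 174.9 TPM to 69.2, 63.4 and 66.2 TPM, and Slc25a39, a mitochondrial glutathione carrier, from 332.1, 326.9 and 316.0 TPM to 140.5, 137.1 and 135.1 TPM. Neither gene had overlapping groups (log2 changes −1.33 and −1.23). Clpx, which activates the first enzyme of heme synthesis, fell by 0.56. The 2 genes of this list that rose were Flvcr1, a heme exporter gene, by 0.65, and Slc25a28, which encodes mitoferrin 2, by 0.32. In iron uptake and storage, 17 of 18 genes passed the filter, 9 fell and 3 rose, with a median of −0.11, again close to the shares of abundant genes. After nuclear protein-coding genes were scaled to a common total, 7 were lower and 6 higher, with a median of −0.03. The transferrin receptor gene Tfrc fell by 0.20, ferritin light chain Ftl1 by 0.39 (−0.09 and not called after quantile normalization), heme oxygenase Hmox1 by 0.34 and biliverdin reductase Blvrb by 0.54. Tfr2, Steap3, an endosomal ferrireductase gene, and Slc40a1, the gene of the iron exporter ferroportin, rose by 0.63, 0.44 and 0.28.

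Transcripts of the red cell membrane fell as a group, 20 of 26 genes that passed the filter (of 29), against 5 that rose, with a median of −0.82. Slc4a1 (ENSMUSG00000006574.15, chromosome 11, 102348824-102366203, minus strand), which encodes the anion exchanger band 3, went from 317.5, 295.5 and 299.9 TPM to 23.2, 21.7 and 22.8 TPM. The libraries with DTPA were all far below the others, at 7.4% of the siZIP10 mean (log2 change −3.70, SE 0.04, adjusted p = 4.89e-13). Rhd, a blood group gene, fell by 2.56 to 0.749 TPM on average. Genes of the skeleton fell too, namely Dmtn by 2.42, Tmod1, which caps actin filaments, by 2.12, Ank1 by 1.00 and Epb41 by 0.72. Car2, the main carbonic anhydrase of these cells, went from 3810.0, 3880.2 and 3831.8 TPM to 1644.8, 1601.9 and 1658.1 TPM (log2 change −1.23).

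The 5 genes of the membrane list that rose were Car1, Kel, Add2, Icam4 and Xk. Car1, another cytosolic carbonic anhydrase gene, went from 42.3, 36.1 and 51.3 TPM to 382.6, 396.9 and 407.5 TPM, opposite to Car2 and without overlap (log2 change 3.18, SE 0.10, adjusted p = 1.67e-09). Kel, a blood group gene, rose from 15.4, 16 and 16.1 TPM to 41.1, 38.3 and 37.5 TPM (log2 change 1.25). Add2, which encodes beta-adducin of the membrane skeleton, rose by 0.93. The adhesion gene Icam4 rose by 0.59, and Xk, whose product pairs with the Kell antigen, rose by 0.30.

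Genes of terminal maturation mostly fell. Of 25, 23 passed the filter, 17 fell, 3 rose (Fhdc1 by 0.46, Ube2o by 0.27, Tent5c by 0.15) and the median was −0.29. Tspan33 went from 214.8, 209.1 and 214.1 TPM to 71, 73.6 and 72 TPM (log2 change −1.55), and Trim10 from 171.7, 158.0 and 161.9 TPM to 61.9, 63.9 and 61.8 TPM (log2 change −1.38). Both genes had groups that were well apart. Bnip3l, the mitophagy receptor that clears mitochondria from reticulocytes, fell by 0.57 and the co-chaperone gene Dnajb2 by 0.76.

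Erythroid regulators split. Of 23, 22 passed the filter, 8 rose and 11 fell, and their median of −0.08 took either sign under other scalings (−0.01 to 0.03). Gata1 stood at 1561.2, 1502.3 and 1592.8 TPM and fell to 1064.5, 997.2 and 997.0 TPM (log2 change −0.61, adjusted p = 1.94e-07). The groups did not overlap, but reads of the introduced form of GATA1 may be counted in this gene, whose own copy the line lacks. Klf1, the erythroid Krüppel-like factor, stood at 573.7, 577.8 and 550.7 TPM against 535.9, 541.8 and 549.2 TPM, without overlap. Its log2 difference of −0.06 did not pass (adjusted p = 0.273, and 0.032 without siControl replicate 1). The erythropoietin receptor gene Epor went from 154.2, 149.3 and 151.2 TPM to 74, 68.7 and 70.1 TPM (log2 change −1.08). Tal1, Nfe2, Klf3 and Bcl11a, which encodes a repressor of embryonic globin genes, fell by 0.54, 0.47, 0.85 and 0.71. Stat5a, which signals below the erythropoietin receptor, rose by 0.83 and Gfi1b by 0.63.

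Progenitor genes were mostly higher with DTPA, where 23.1% of all genes tested rose and 37.3% fell. Of 16, 13 passed the filter, 9 rose and 2 fell (Lmo4 by 0.65 and Runx1 by 0.24), with a median of 0.78. Kit, the receptor of stem cell factor, went from 16.5, 14.5 and 17.8 TPM to 59.8, 55.6 and 56.5 TPM, 3.52 times its level (log2 change 1.76, SE 0.07, adjusted p = 3.92e-09). Gata2, which GATA1 replaces during differentiation, went from 32.9, 33 and 33.3 TPM to 80.7, 76.7 and 74.1 TPM (log2 change 1.20, SE 0.04, adjusted p = 3.04e-09). For both genes every library with DTPA was above every library without. Myb rose by 2.06 to 8.4 TPM, Spi1, the gene of the myeloid factor PU.1, by 1.71, Cd44 by 1.21 and Myc by 1.14.

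Some marker transcripts of other blood lineages rose as well. Hdc, which makes histamine, went from 2.08, 1.7 and 1.69 TPM to 20.7, 21.5 and 22.5 TPM (log2 change 3.00, adjusted p = 3.77e-09), and Tph1, the rate-limiting enzyme of serotonin synthesis, from 2.63, 2.26 and 2.57 TPM to 19.1, 18.2 and 17.4 TPM (log2 change 2.46). With Gata2, these were all 3 mast cell and basophil markers, of 12, that passed the filter. Their list summed to 37.2 to 37.8 TPM in siZIP10 and 116.2 to 121.9 TPM with DTPA, while 4 of the 12 were at 0 in all 6 libraries, among them the high-affinity IgE receptor genes Fcer1a and Ms4a2 and the basophil protease gene Mcpt8. Of 12 megakaryocyte markers, 4 passed the filter and 3 rose. Gp1ba rose by 1.60, Itgb3 by 1.48 and Itga2b by 1.12, and the list summed to 17.4 to 18.9 TPM against 58.1 to 59.3 TPM. Ppbp was at 0 in all 6, and Pf4 was at 0 in siZIP10 and at 1.31, 3 and 2.4 TPM with DTPA. The 16 myeloid markers summed to 2.98 to 5.16 TPM against 6.18 to 6.88 TPM with 10 at 0, including Mpo, Elane and Itgam. The 14 lymphoid markers summed to 0.825 to 1.93 TPM against 2.78 to 3.62 TPM with 10 at 0. In each of these lists 1 gene passed the filter. Cd68 rose by 0.60. Cd79a had means of 0.718, 0.777 and 0.933 TPM in siControl, siControl plus DTPA and siZIP10 and 2.81 TPM in siZIP10 plus DTPA, so it passed the filter only through the group where it was high, and its difference of 1.01 is a description. The part of other cell types in the results was not tested.

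**Figure D3:**
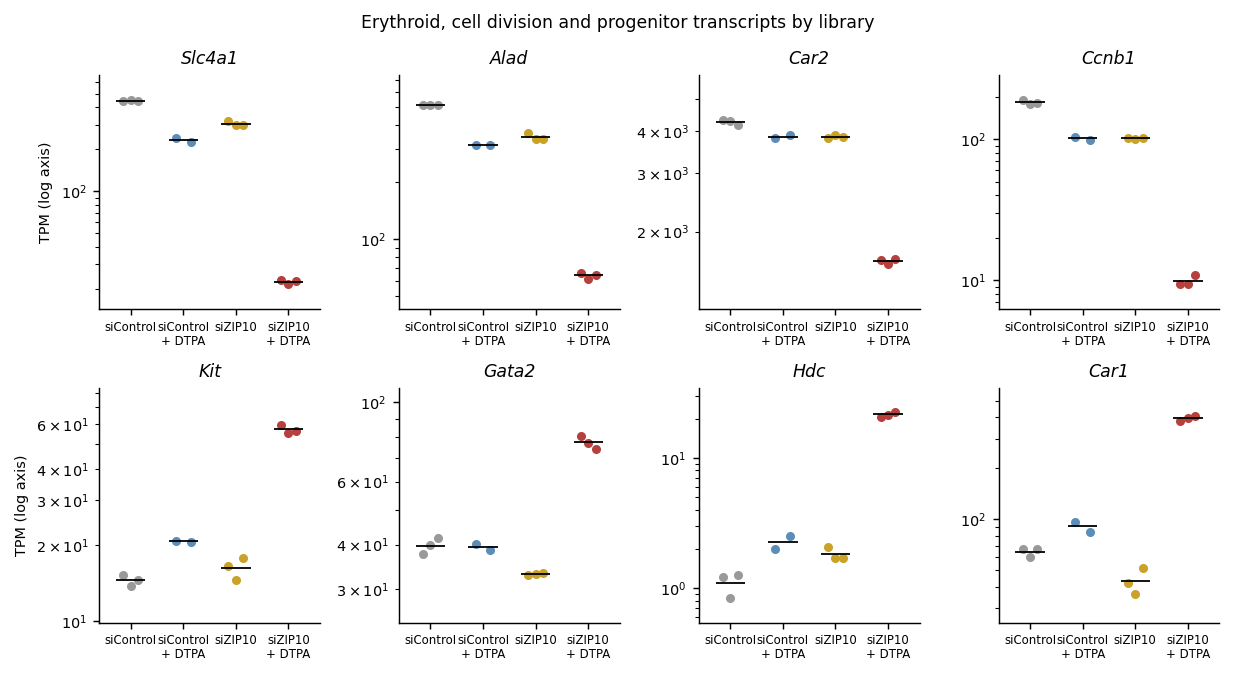
TPM of 8 genes in each library (points, log axis) and the group mean (line) in the 4 groups, with 3 libraries per group and 2 in siControl plus DTPA. The 3 libraries of siZIP10 plus DTPA sit below all others for Slc4a1, Alad, Car2 and Ccnb1 and above all others for Kit, Gata2, Hdc and Car1.

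Every one of the 39 mitosis genes tested fell, with a median of −2.33, where 37.3% of all genes tested fell. Under the alternative settings, 36 to 39 of them were called lower. Nusap1, which bundles spindle microtubules, went from 51.6, 47.7 and 50.4 TPM to 2.13, 2.1 and 1.74 TPM (log2 change −4.09, SE 0.06, adjusted p = 5.8e-12). Ube2c, the ubiquitin-conjugating enzyme of the anaphase-promoting complex, went from 80.2, 85 and 82.1 TPM to 4.88, 4.62 and 4.72 TPM (log2 change −3.86, SE 0.03, adjusted p = 2.15e-13). Neither gene had overlapping groups, and 3.99% and 5.75% of their levels were left. Hmmr, a spindle protein gene, fell by 3.85 and the kinesin gene Kif4 by 3.31. The mitotic cyclin gene Ccnb1 went from 101.2, 100.9 and 101.6 TPM to 9.42, 9.47 and 10.9 TPM (log2 change −3.23), and Ccnb2 from 33, 27.5 and 30.3 TPM to 2.74, 1.57 and 3.3 TPM (log2 change −3.17). Ckap2l fell by 3.15, the topoisomerase gene Top2a by 2.58 and the kinase gene Plk1 by 2.36. Mki67, a marker of proliferation, had a log2 change of −2.72.

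Promoters of 4 of these genes are shown because they fell together and hold the motif that marks many mitotic promoters. The runs hold 250 bases before and 50 bases after a RefSeq start (GRCm38.p6), 5′ to 3′ on the gene's strand, with TTTGAA, the core of the cell cycle homology region, in capitals on either strand (TTCAAA where it lies on the other strand). The windows are chr9:70421505-70421804 (minus strand) for Ccnb2, chr2:164769679-164769978 (plus strand) for Ube2c, chr11:40733388-40733687 (minus strand) for Hmmr and chrX:100625815-100626114 (plus strand) for Kif4.
Ccnb2: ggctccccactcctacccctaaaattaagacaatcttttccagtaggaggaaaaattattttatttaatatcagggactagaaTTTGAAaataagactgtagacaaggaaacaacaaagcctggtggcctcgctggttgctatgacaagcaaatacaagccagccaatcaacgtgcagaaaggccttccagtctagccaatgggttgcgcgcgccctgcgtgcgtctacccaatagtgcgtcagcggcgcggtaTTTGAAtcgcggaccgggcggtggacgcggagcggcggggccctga
Ube2c: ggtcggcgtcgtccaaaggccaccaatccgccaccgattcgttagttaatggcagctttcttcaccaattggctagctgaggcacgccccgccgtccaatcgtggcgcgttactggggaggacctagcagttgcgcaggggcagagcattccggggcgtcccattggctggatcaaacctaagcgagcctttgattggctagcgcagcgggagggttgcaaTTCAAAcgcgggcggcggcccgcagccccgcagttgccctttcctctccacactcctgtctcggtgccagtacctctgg
Hmmr: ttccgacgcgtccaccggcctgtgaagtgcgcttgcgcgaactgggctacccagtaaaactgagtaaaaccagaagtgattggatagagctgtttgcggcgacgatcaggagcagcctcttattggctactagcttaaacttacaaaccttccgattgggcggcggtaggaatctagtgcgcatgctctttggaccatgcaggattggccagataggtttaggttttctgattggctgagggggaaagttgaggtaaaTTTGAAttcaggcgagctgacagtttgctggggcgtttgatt
Kif4: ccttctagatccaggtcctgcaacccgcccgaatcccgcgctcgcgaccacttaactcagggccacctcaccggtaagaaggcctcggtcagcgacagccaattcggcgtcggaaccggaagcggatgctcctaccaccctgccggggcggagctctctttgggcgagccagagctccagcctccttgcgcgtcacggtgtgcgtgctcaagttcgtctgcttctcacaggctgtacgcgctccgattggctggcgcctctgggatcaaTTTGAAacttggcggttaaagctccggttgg
The core occurred 2 times in the Ccnb2 window and 1 time in each of the others. Of 33 mitosis genes with a window, 25 (75.8%) held it, against 4 of 36 (11.1%) genes of DNA replication, 14.1% of the 7725 tested genes with a window and 17.9% of all 32851 windows. The windows of Ccnb1 and Nusap1 held no match to this core, and both genes fell.

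DNA replication genes also fell. All 44 were tested, 39 fell, 2 rose and the median was −0.85. Mcm5, a subunit of the replicative helicase, went from 53.9, 47.1 and 46.8 TPM to 5.01, 4.07 and 5.78 TPM (log2 change −3.09, SE 0.09, adjusted p = 7.49e-10), and Mcm6 from 21, 20.9 and 20.9 TPM to 3.04, 2.89 and 3.15 TPM (log2 change −2.45). The groups of both were far apart. Rrm2, the regulated subunit of ribonucleotide reductase, fell by 2.53, and Orc1 and Cdc6, which load the helicase, by 1.93 and 1.90. Among 24 G1 cyclins, E2F factors and CDK inhibitors, 19 passed the filter, 12 fell and 2 rose (E2f3 by 0.56 and Cdkn2d by 0.33), with a median of −0.28. Over all genes tested, 37.3% fell and 23.1% rose. In the third of nuclear protein-coding genes with the highest levels 56.2% fell, and the falls of the G1 list lie near that share. E2f2, E2f8, Ccne1 and Cdkn2c fell by 1.68, 1.67, 1.43 and 1.40.

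Of 9 replication-linked histone genes listed, 2 passed the filter. Hist1h2al rose, and Hist1h2bp had a difference of 0.05. Few small RNAs were called in either direction, where 60.4% of all genes tested passed. Of 117 snoRNAs, 6 were higher and 4 lower, of 127 miRNAs 16 and 10, and of 46 snRNAs 4 and 6. Their median log2 differences were 0.08, 0.19 and −0.21, against −0.06 for all genes tested. With so few calls, these counts do not show whether small RNAs shared a direction. The transcripts given next were chosen for large differences, and H4c9 is not on that list. H4c9 went from 10.8, 16.8 and 10.9 TPM to 69.9, 69.8 and 70.8 TPM (log2 change 2.39) and Hist1h2al, which the annotation lists as a processed pseudogene, from 8.3, 8.68 and 9.61 TPM to 55.8, 59.2 and 45.5 TPM (log2 change 2.46). Rn7sk, a nuclear RNA without a poly(A) tail, went from 31.6, 28.4 and 33.8 TPM to 115.5, 153.3 and 130.3 TPM (log2 change 2.05). All 3 had groups without overlap, which was a condition of the choice. The mitochondrial ribosomal RNAs mt-Rnr1 and mt-Rnr2 rose by 1.67 and 2.11. The libraries were made with a kit for polyadenylated RNA, and the part of RNA selection or quality in these values was not tested.

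Cytosolic ribosomal protein genes rose, while nuclear genes of the mitochondrial ribosome and the respiratory chain mostly fell. Of 79 cytosolic ribosomal protein genes, 70 rose and 2 fell (Rps27l by 0.25 and Rpsa by 0.24), with a median of 0.42, and 68 to 72 rose under the alternatives. Rps15a went from 159.0, 158.3 and 158.0 TPM to 313.4, 304.8 and 333.1 TPM (log2 change 1.00) and Rpl12 from 196.5, 197.7 and 202.6 TPM to 353.9, 348.6 and 362.4 TPM (log2 change 0.83). For both, every library with DTPA was higher. Reads of these genes can be shared with their many processed pseudogenes, so single values are uncertain. Of 76 mitochondrial ribosomal protein genes that passed the filter (of 77), 48 fell and 3 rose (Mrpl52 by 0.33, Mrpl1 by 0.23, Mrpl4 by 0.11), with a median of −0.28. Over all genes tested, 37.3% fell and 23.1% rose. In the third of nuclear protein-coding genes with the highest levels, 56.2% fell and 23.6% rose. The falls among mitochondrial ribosomal protein genes lie near the share of these abundant genes. Of 75 nuclear genes of the respiratory chain and ATP synthase (of 76), 66 fell and 1, Cox8a, rose by 0.28, with a median of −0.46. Ndufb8, a complex I subunit gene, fell by 0.96, Atp5k by 0.84 and Cox5b by 0.79. Of the 13 mRNAs that the mitochondrial genome encodes, 8 rose and 0 fell, with a median of 0.31. The gene mt-Co1 went from 18261.2, 18700.3 and 18950.7 TPM to 24855.6, 24701.7 and 25669.1 TPM (log2 change 0.43), but only 1 of the 13 rose after quantile normalization, where mt-Co1 stood at −0.00. The calls of mt-Nd3 and mt-Nd6 were lost in 16 and 12 of the 22 alternatives. Of 34 ribosome biogenesis genes, 10 were higher and 9 lower, with a median of 0.01, and after scaling of nuclear protein-coding genes to a common total 16 were higher and 8 lower, with a median of 0.10. That rescaling gave 9 higher and 42 lower among mitochondrial ribosomal protein genes.

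Transcripts of lipid synthesis, proteasome and aminoacyl-tRNA synthetase genes mostly fell, where 37.3% of all genes tested fell and 23.1% rose. All 27 genes of cholesterol and fatty acid synthesis that passed the filter (of 30) fell, with a median of −0.93. Fdft1, which makes squalene, went from 287.4, 283.4 and 282.3 TPM to 99.7, 98.2 and 98.7 TPM (log2 change −1.51, SE 0.02, adjusted p = 5.53e-12), and Hmgcs1 from 279.3, 288.3 and 288.3 TPM to 108.7, 109.6 and 113.7 TPM (log2 change −1.36). Neither overlapped. Fdps fell by 1.77, Idi1 by 1.25 and Lss by 1.19. Of 34 proteasome subunit genes, 33 fell, with a median of −0.42 and a narrow range, Psmc3 lowest at −0.66. Of 20 aminoacyl-tRNA synthetase genes, 16 fell and 2 rose (Dars and Lars, both by 0.18), with a median of −0.43, and Aars fell by 1.04.

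Glycolysis genes fell in 14 of 20 cases and rose in 5, with a median of −0.41 (23 were listed). Pklr, the pyruvate kinase of red cells, went from 75.3, 74.1 and 71.6 TPM to 27.6, 25.9 and 28.3 TPM (log2 change −1.40) and Pfkp from 157.9, 148.8 and 156.4 TPM to 62.4, 60.7 and 63.8 TPM (log2 change −1.30). Slc2a3, a glucose transporter gene, fell by 1.32. The 5 that rose were Hk2, by 1.06, Pgam1, Aldoc, Pfkm and Gpi1, the last 4 by 0.11 to 0.37.

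Genes of stress responses mostly fell or split, where 37.3% of all genes tested fell and 23.1% rose. Of 22 amino acid response genes (targets of ATF4) that passed the filter (of 31), 16 fell and 2 rose (Cebpb by 0.97 and Herpud1 by 0.40), with a median of −0.36. Nupr1, a stress-induced cofactor gene, fell by 1.67, and Mthfd2 and Shmt2 of mitochondrial one-carbon metabolism by 1.29 and 1.17. Of 21 NRF2 targets (of 25), 14 fell and 3 rose, with a median of −0.38. Nqo1, a quinone reductase gene, went from 72.8, 77.9 and 73.3 TPM to 14.1, 11.8 and 14.7 TPM (log2 change −2.39, adjusted p = 7.06e-10), while Abcc1, a glutathione conjugate exporter gene, rose by 0.90, Srxn1 by 0.70 and Me1 by 0.22. Heat shock genes fell in 12 of 17 cases (20 listed) and 1, Hsp90aa1, rose by 0.13. After scaling of nuclear protein-coding genes to a common total, the lower and higher counts were 13 and 4 for the amino acid response, 14 and 6 for NRF2 targets, 10 and 4 for heat shock. Stip1 and Hsph1 both fell by 0.70. Of 21 endoplasmic reticulum chaperone genes, 7 rose and 8 fell, and the median of −0.03 turned to between 0.03 and 0.05 under other scalings. Dnajb9 rose by 0.60, while Sec61b, Canx and Atf6 fell by 0.64, 0.63 and 0.47. Among 13 interferon response genes (of 26), 5 fell and 2, Ddx58 and Ifih1, were called higher. Ifih1 rose by 0.30 and Ifi35 fell by 1.03. Ddx58 differed by 0.53. Its means were 0.727, 0.93 and 0.937 TPM in siControl, siControl plus DTPA and siZIP10, and 1.82 TPM in siZIP10 plus DTPA. It passed the filter only through the group where it was high, so its difference is a description. Ddx58 lost its call without siZIP10 replicate 2 or 3 or siZIP10 plus DTPA replicate 1 (adjusted p = 0.0738, 0.0703 and 0.109), and Ifih1 without siZIP10 plus DTPA replicate 1 (adjusted p = 0.0566).

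Genes of cell death and of the p53 response were mixed. Of 17 cell death regulators (of 23), 6 rose and 7 fell, and their median of −0.09 ran from −0.03 to 0.01 under other scalings. With nuclear protein-coding genes scaled to a common total, 7 were higher and 4 lower. Bcl2l1, which encodes the survival protein BCL-XL, went from 238.8, 235.9 and 232.2 TPM to 124.2, 121.3 and 125.1 TPM (log2 change −0.93, SE 0.02, adjusted p = 1.76e-10). The pro-apoptotic genes Bak1 and Bcl2l11 went in different directions, Bak1 falling by 0.81 and Bcl2l11, which encodes BIM, rising by 0.56. Mcl1 fell by 0.33. Of 19 p53 genes (of 25), 8 fell and 3 rose, with a median of −0.20, where 37.3% of all genes tested fell and 23.1% rose. After the same rescaling 8 were lower and 6 higher, with a median of −0.11. Trp53 itself rose by 0.24, Btg2 by 0.34 and Bbc3 by 0.16. Sesn2 fell by 0.91, Ei24 by 0.71, and Cdkn1a, which encodes the cell cycle inhibitor p21, and Ccng1 fell by 0.29 each. Of 28 autophagy and mitophagy genes, 16 fell and 4 rose (Tfeb by 0.70, Ulk1 by 0.53, Atg14 by 0.29, Sqstm1 by 0.25), with a median of −0.12, and Bnip3 fell by 0.84. After scaling to a common total of nuclear protein-coding genes the split was 12 lower and 8 higher, with a median of −0.03. For comparison, 56.2% fell and 23.6% rose in the third of nuclear protein-coding genes with the highest levels.

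Genes named Zfp with a number, many of which encode zinc-binding finger proteins, showed no common direction. Of 375 listed, 253 passed the filter, 68 rose, 64 fell and the median was 0.03, where 23.1% of all genes tested rose and 37.3% fell. Zfp27 rose from 11.3, 10.4 and 11 TPM to 33.4, 32.1 and 31 TPM (log2 change 1.48), and Zfp59 and Zfp213 fell by 0.95 and 0.94. After nuclear protein-coding genes were scaled to a common total, 91 were higher and 46 lower, a split that moved with the scaling as it did for all genes.

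**Figure D4:**
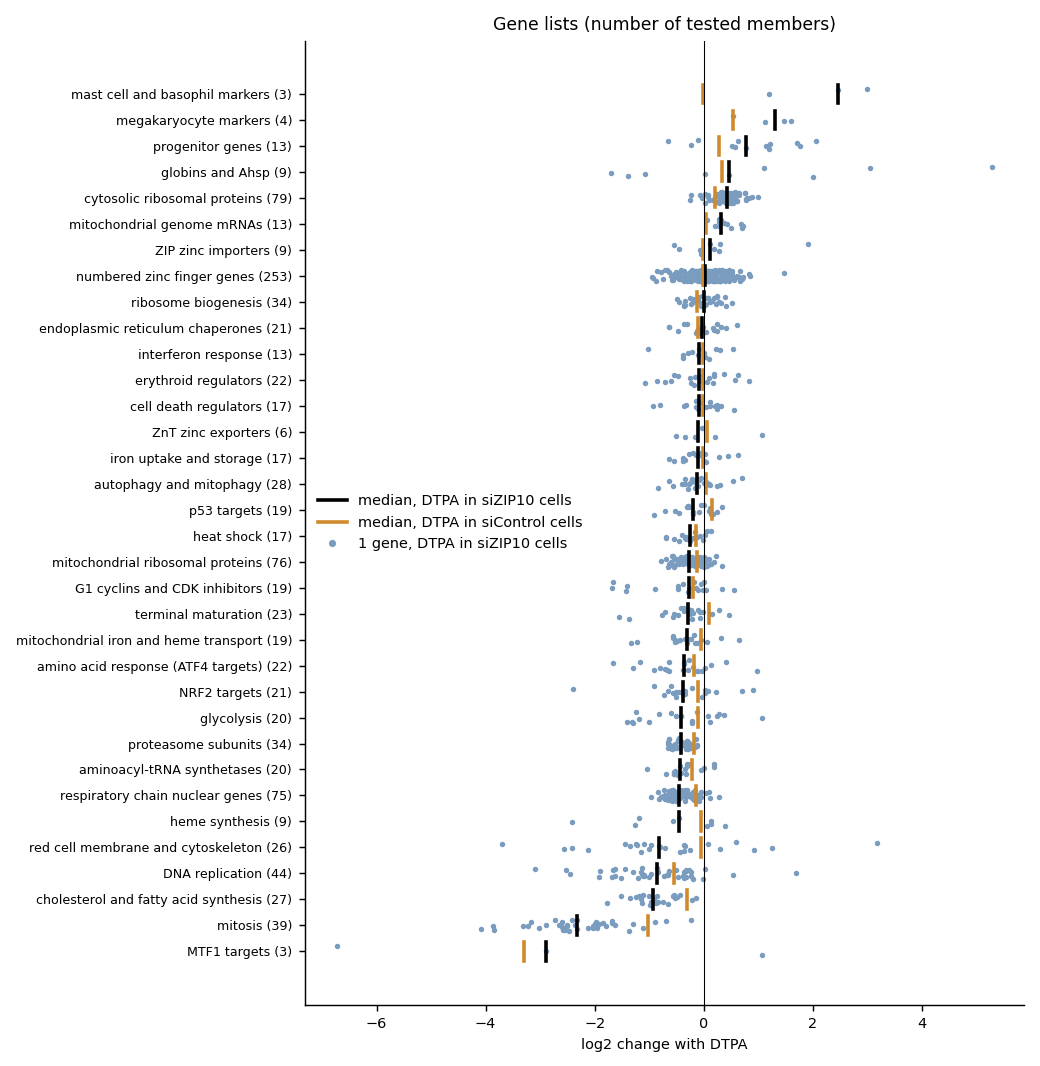
Log2 change with DTPA in siZIP10 cells of every tested gene of the lists with at least 3 tested members (blue points, number of genes in parentheses), with the list median there (black bar) and the median of the same genes with DTPA in siControl cells (orange bar). Mitosis stands at −2.33 and −1.02, cholesterol and fatty acid synthesis at −0.93 and −0.31, and red cell membrane genes at −0.82 and −0.05.

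Several of the strongest changes lay outside these lists. Alpk3, an alpha-kinase gene of muscle, went from 4, 4.34 and 4.37 TPM to 64.6, 59.9 and 61.4 TPM, 14.6 times its level (log2 change 3.59, SE 0.07, adjusted p = 3.12e-11). F2rl2, a thrombin receptor gene, went from 0.562, 0.353 and 0.396 TPM to 12.5, 12.1 and 12.1 TPM (log2 change 3.20), and Cpz, a carboxypeptidase gene, from 24, 21.1 and 24.9 TPM to 140.7, 134.6 and 135.9 TPM (log2 change 2.51). All 3 were picked among genes without overlap of groups, and F2rl2 passed the filter only through its high group. The interleukin 9 receptor gene Il9r, the splicing factor gene Rbm20 and the non-coding Platr32 rose by 2.55, 2.53 and 3.14, from means of 1.37, 1.46 and 0.609 TPM. Platr32 (chromosome 7, 81059113-81066307) lies inside Alpk3 (81057600-81105612) on the same strand. Its 0 to 3 reads per library in siZIP10 and 31 to 42 with DTPA cannot be told apart from RNA of Alpk3. Il2rg, the common chain of several cytokine receptors, rose by 2.18. Creb3l3, a membrane-bound transcription factor gene, went from 33.2, 33.3 and 31.1 TPM to 2.24, 1.48 and 2.68 TPM (log2 change −3.44, SE 0.12, adjusted p = 2.23e-09). The cohesin acetyltransferase gene Esco2 went from 18.8, 18 and 19.4 TPM to 1.46, 1.32 and 1.43 TPM (log2 change −3.04).

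The same DTPA treatment in siControl cells shares no library with this comparison and was set beside it to see where the 2 responses differed. In siControl cells 3272 genes (28.8%) passed the test, 1136 (9.98%) higher and 2136 (18.8%) lower, with n = 2 for siControl plus DTPA. Changes of at least 2-fold there were 31 rises (0.272%) and 78 falls (0.685%). Of the 2623 genes higher with DTPA in siZIP10 cells, 884 were also higher in siControl cells, 33.7% of the former and 77.8% of the latter, and 43 were lower. Of the 4248 lower, 1863 were also lower, 43.9% and 87.2%, and 83 were higher. The difference between the 2 responses was tested as an interaction, the DTPA effect in siZIP10 cells minus that in siControl cells. It passed in 3687 genes (32.4%), 1369 (12%) with a positive and 2318 (20.4%) with a negative difference. Of the genes higher with DTPA in siZIP10 cells, 1246 (47.5%) had a positive interaction and 16 a negative one, and of those lower, 2185 (51.4%) had a negative and 13 a positive one. The interaction contains the difference by which these genes were chosen, and that choice favours the same direction. The counts within these genes are therefore a description.

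Metallothionein transcripts fell in both backgrounds. Mt1 stood at 1627.4, 1804.5 and 1688.6 TPM in siControl and at 170.1 and 175.5 TPM with DTPA, a log2 change of −3.30 against −2.89 in siZIP10 cells (interaction 0.41, adjusted p = 0.00257). For Mt2 the changes were −6.83 and −6.72 (interaction 0.11, adjusted p = 0.674). Slc30a1 stood at 85.9, 80.4 and 81.2 TPM in siControl and at 92.5 and 87.6 TPM with DTPA, a log2 difference of 0.13 that did not pass (adjusted p = 0.068), and its response in siZIP10 cells was larger (interaction 0.95, adjusted p = 1.92e-06). Slc39a10 changed by 2.61 in siControl cells and by 1.91 in siZIP10 cells (interaction −0.70, adjusted p = 0.00604). With a voom fit on reads the last difference was 0.06 (adjusted p = 0.88), and the TPM ratios were 8.05 and 8.14.

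Several erythroid transcripts fell further with DTPA in siZIP10 cells than in siControl cells. Slc4a1 stood at 441.6, 451.7 and 441.8 TPM in siControl and at 241.4 and 226.2 TPM with DTPA, a log2 change of −0.93 against −3.70 (interaction −2.77, adjusted p = 8.62e-10). Hba-a1 changed by 0.03 (adjusted p = 0.797) against −1.39 (interaction −1.42, adjusted p = 7.58e-07), and Alad by −0.70 against −2.42 (interaction −1.71). Over the 26 membrane genes, 18 had a negative and 5 a positive interaction, and over 23 maturation genes 19 and 0. Over all genes tested the shares were 20.4% and 12%. Hbb-bh1 rose in both backgrounds, from 139.6, 145.4 and 142.4 TPM to 1143.3 and 1133.7 TPM in siControl cells, a log2 change of 2.99 against 5.28 (interaction 2.29, adjusted p = 2.33e-09). Hbb-bs rose by 0.45 in siControl cells and differed by 0.03 in siZIP10 cells (interaction −0.42, adjusted p = 0.00494).

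Progenitor genes were raised further in siZIP10 cells. Gata2 stood at 37.6, 39.9 and 41.6 TPM in siControl and at 40.1 and 38.7 TPM with DTPA, within the same range (log2 difference −0.01, adjusted p = 0.904, interaction 1.21, adjusted p = 5.01e-07). Kit rose by 0.48 in siControl cells and by 1.76 in siZIP10 cells (interaction 1.28). Of 13 progenitor genes, 8 had a positive and 1 a negative interaction, where 12% and 20.4% of all genes tested did. Car1 rose by 0.48 against 3.18 (interaction 2.69, adjusted p = 8.83e-07). Hdc rose by 0.63 against 3.00 (interaction 2.38), and Tph1 differed by −0.09 (adjusted p = 0.632) against 2.46 (interaction 2.55).

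All 39 mitosis genes fell in both backgrounds, with medians of −1.02 and −2.33. Of them, 37 had a negative and 1 a positive interaction, where 20.4% and 12% of all genes tested did. Nusap1 fell by 1.19 and by 4.09 (interaction −2.90, adjusted p = 1.13e-08), and Ube2c by 1.02 and by 3.86 (interaction −2.84). Of the 44 DNA replication genes, 39 fell in each background, 18 had a negative interaction and 3 a positive one. Of 27 lipid synthesis genes, 25 fell and 1 rose in siControl cells, 23 had a negative interaction and 0 a positive one. Of 79 cytosolic ribosomal protein genes, 62 rose in siControl cells, 57 had a positive interaction and 4 a negative one. The p53 list pointed the other way, with 12 of 19 genes higher and 0 lower in siControl cells (median 0.15). Of these 19, 14 had a negative and 1 a positive interaction. Cdkn1a rose by 0.23 and Ccng1 by 0.27 in siControl cells where both fell by 0.29 in siZIP10 cells (interactions −0.52 and −0.56, adjusted p = 6.28e-05 and 1.12e-06).

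**Figure D5:**
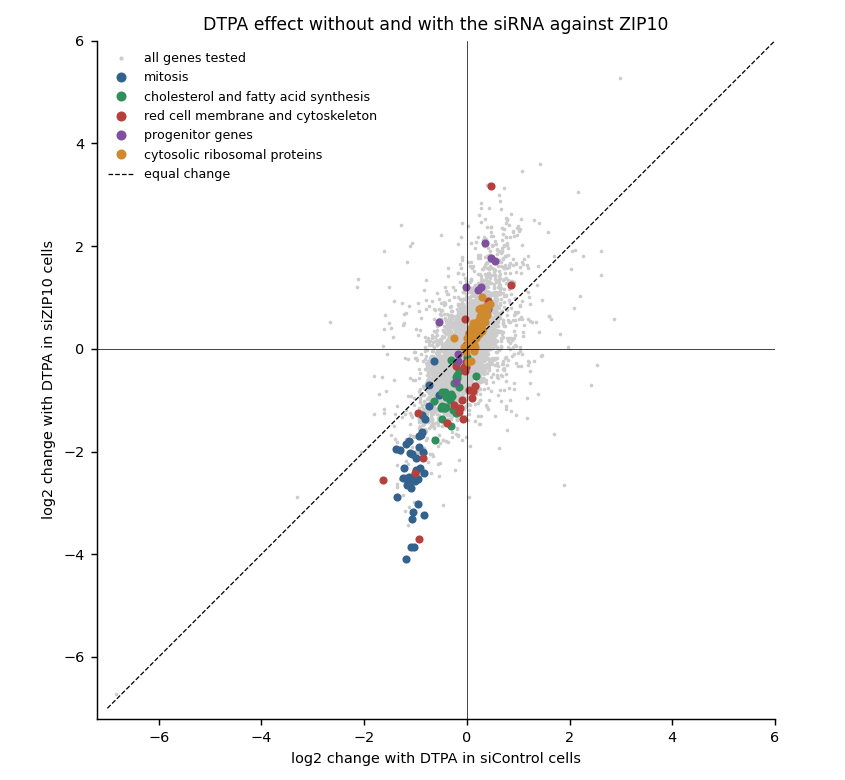
Log2 change with DTPA in siZIP10 cells (vertical axis) against that in siControl cells (horizontal axis) for all genes tested (grey) and 5 gene lists (colours), with a dashed line where both changes are equal. Mitosis genes have medians of −2.33 and −1.02 and lie below the line in 37 of 39 cases by the interaction test, and red cell membrane genes have medians of −0.82 and −0.05.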

How the data were processed

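RNA was sequenced from 12 cultures in 4 groups with 3 labelled replicates each, per the labels with a stranded kit for polyadenylated RNA. The authors deposited TPM per gene, with a total of 1000000 in every library. The submitters' processing notes name FastQC, Trimmomatic 0.33, featureCounts, HISAT2 2.1.0, edgeR and build mm10. Settings, annotation and use of strand are not given in those notes, so values of overlapping genes are uncertain. Each library lists 55487 genes, of which 53170 matched GENCODE mouse release 21 by name, which gave positions, lengths and biotypes. The 114 names that occur more than once were kept in the fit and out of the gene lists.

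TPM times exon length fell on whole multiples of a unit for each library, and this unit gave the reads. Of values of up to 20 reads, 98.9 to 99.1% were whole within 0.1 read. Libraries held 19.62 to 24.68 M reads, where M stands for 1000000. Genes with few reads have the least precise values.

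The library siControl plus DTPA replicate 3 was left out, since its values are those of siZIP10 replicate 1. The other 11 libraries entered 1 fit of 4 group means with limma 3.58.1 (R 4.3.3) on log2(TPM + 1), with a trend on mean expression (7 residual and 3.21 prior degrees of freedom), for genes whose mean reached 1 TPM. Tests were two-sided, adjusted by the Benjamini-Hochberg method over all 11379 genes, with a threshold of 0.05. No pairing was used, as planned. Deviations from the group means of same-numbered libraries of the 2 groups had correlations of −0.0453, −0.0602 and −0.00394. These values do not show that the cultures were unpaired. Alternatives were other pseudocounts, filters, scalings and tests, a replicate block, the duplicated library as labelled, and each library left out. Other software was matplotlib 3.10.9, pandas 2.3.3, numpy 2.4.6 and Python 3.11.15.

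The comparison and the 38 gene lists were chosen with earlier results of these data known, so list counts are descriptions, with no test of a list. Genes were named by rule: the zinc genes, the 12 largest rises and falls and the 8 largest interactions each way at 5 TPM or more without overlap of groups, and up to 5 members of each list that passed, with a set of erythroid genes. Car2, Ank1, Nfe2, Tal1, Cdkn1a, Ccng1, Ypel4, Hba-x, Hbq1b, Uros, Kel, Add2, Plk1, Top2a, Ftl1 and the members named because they moved against their list or did not pass were chosen after their values were seen. Some genes are not reported here by name.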

Additional observations from a re-analysis of the deposited data

Results flagged for a closer look

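The DTPA effect differed between siZIP10 and siControl cells, by a test of the difference itself (limma, adjusted p under 0.05), in 1369 genes with a positive and 2318 with a negative difference. The difference is the log2 change with DTPA in siZIP10 cells minus that in siControl cells. It rests on n = 2 for siControl plus DTPA.

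Among genes that rose with DTPA in siZIP10 cells, it was 2.29 for Hbb-bh1, 2.15 for Alpk3, 2.69 for Car1, 2.38 for Hdc, 2.55 for Tph1, 2.37 for H4c9, 2.23 for Rn7sk and 1.96 for Il2rg. Among genes that fell, it was −2.90 for Nusap1, −2.84 for Ube2c, −2.77 for Hmmr, −2.77 for Slc4a1, −2.29 for Creb3l3, −2.24 for Kif4, −2.39 for Ccnb1 and −2.56 for Esco2.

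The list members Fech, Epb41, Trp53inp1, Bcl2l1, Atf6, Pklr, Nfe2, Cdkn1a, Ccng1 and Ypel4 rose with DTPA in siControl cells and fell with it in siZIP10 cells. Their differences were −0.55 for Fech, −0.87 for Epb41, −0.65 for Trp53inp1, −1.06 for Bcl2l1, −0.60 for Atf6, −1.57 for Pklr, −0.67 for Nfe2, −0.52 for Cdkn1a, −0.56 for Ccng1 and −0.98 for Ypel4.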

How the results depend on the processing

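The DTPA effect in siZIP10 cells kept its direction and its side of the threshold under all 22 alternatives in 190 of the 206 genes examined by name. Leaving out 1 library at a time gave 2324 to 2611 genes higher and 3879 to 4228 lower with DTPA in siZIP10 cells, and 947 to 1331 with a positive and 1798 to 2243 with a negative interaction. The replicate block gave 2626 and 4227 genes and 1306 and 2335 interactions. No siZIP10 or siZIP10 plus DTPA library correlated best with the one of its own number in the other group. This does not show that the cultures were unpaired, and the siControl libraries were not checked in this way.

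Scaling nuclear protein-coding genes to a common total gave 2124 positive interactions, against 1369. A filter of 5 TPM, which tests fewer genes, gave 206 in place of 339 genes at least 2-fold higher and 110 in place of 190 positive interactions of at least 2-fold. A pseudocount of 0.1 gave 214 in place of 136 negative interactions of at least 2-fold.

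Some small values turned. With the duplicated library as labelled, which puts siZIP10 values into siControl plus DTPA, the interactions were 0.58 for Slc39a10, −0.73 for Mt1 and −2.24 for Mt2. The interaction of Slc39a10 was 0.06 in the voom fit. With 1 library left out, that of Mt2 ran from −0.06 (without siControl plus DTPA replicate 2; −0.02 without siZIP10 plus DTPA replicate 2) to 0.28. Quantile normalization gave −0.00 for mt-Co1, −0.16 for mt-Nd4, −0.00 for mt-Nd5, −0.15 for Alas2 and 0.00 for Klf1. Klf1 stood at 0.02 after scaling of nuclear protein-coding genes. With 1 library left out, Hbb-bs ran from −0.01 (without siZIP10 plus DTPA replicate 2) to 0.07 and Hbb-bt from −0.02 (without siZIP10 plus DTPA replicate 1) to 0.90. The calls of Slc30a7, mt-Nd3, mt-Nd6, Ddx58, Ifih1, Ftl1 (quantile normalization) and, with the duplicate as labelled, Slc39a10, Hba-x and Hmox1 were lost in at least 1 alternative, while Alas2 was called higher in 4. For the changes other than those of filter and duplicate, the cause was not tested. With n = 3 and 3, genes of few reads are the least certain.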
